A study of Mus musculus with 4 samples.

Results

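The genes described here are the core of MHC class I antigen presentation and of the immunoproteasome: the classical heavy chains H2-K1 and H2-D1, the light chain B2m, the peptide transporter subunits Tap1 and Tap2, the loading factor Tapbp, the inducible proteasome subunits Psmb8, Psmb9 and Psmb10, and the transcriptional activator Nlrc5. They were matched by symbol, and all 10 were among the 12584 genes of the deposited table. Their levels were read in each annotated cell class and in each of 4 single-cell libraries. Each group is a single library, so conditions could not be tested against each other and the text holds no p-value.

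Each library held CD45+ cells sorted from 3 pooled tumours of YUMM1.7-OVA RTT, a Braf-mutant, Cdkn2a-deficient mouse melanoma line that carries the model antigen ovalbumin and is resistant to targeted therapy. All tumours grew in Rag2-/- mice, which make no T or B cells of their own but keep myeloid and NK cells. OT-1 CD8+ T cells specific for ovalbumin were given by adoptive cell transfer (ACT) on day 7, and tumours were taken on day 10, 72 h later. CTRL tumours carried an mCherry control vector. The other groups were RTT whose cancer cells carried Irf3 and Irf7 expression vectors (IRF3/7), RTT in mice given the COX2 inhibitor celecoxib (COX2i), and RTT in mice given celecoxib together with the DNA methyltransferase inhibitor 5-azacitidine (COX2i + 5-AZA). CTRL is the reference of 3 comparisons, which therefore share it, and COX2i is the reference of the fourth.

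Class I molecules show peptides from inside the cell to CD8+ T cells. Proteasomes cut proteins into peptides, the Tap1 and Tap2 heterodimer pumps them into the endoplasmic reticulum, and Tapbp (tapasin) bridges the transporter to empty heavy chains, which are stable at the surface only with B2m and peptide. Under interferon, Psmb8, Psmb9 and Psmb10 replace the catalytic subunits Psmb5, Psmb6 and Psmb7 in newly assembled proteasomes, and Nlrc5 acts with RFX factors on class I promoters. Dendritic cells are the specialised presenters of antigen to naive T cells, and interferon raises the same machinery in nearly every nucleated cell.

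The libraries held 6329 to 10032 cells and 26356819 to 78722763 unique molecular identifiers (UMIs, 1 per counted molecule). IRF3/7 was the shallowest, with a median of 3168 UMIs per cell against 6039.5 to 7502 in the others. No whole cell barcode occurred in more than 1 library, and 4830 of 29259 droplet barcodes did, as pooled libraries told apart by a probe barcode allow. Of 70 class markers, 59 were highest in the class they mark. For Monocyte_1 0 of 4 were, and all 4 were highest in another monocyte class. The class mix differed widely. Monocytes were 1.55% of CTRL cells, 72.6% of IRF3/7 cells, 6.11% of COX2i cells and 46.7% of COX2i + 5-AZA cells, while macrophages were 83.5%, 6.94%, 74.7% and 41.0%. Levels below are summed UMIs scaled to the UMI total of the cells named, as CPM, intervals in parentheses are exact 95% intervals that cover counting error only, and a class was used where it had at least 50 cells. The annotated classes were made by clustering on expression, so differences between classes are descriptions. Of 34447 cells, 1201 had 1000 or fewer detected genes.

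In the mouse genome (GRCm38), 7 of the 10 genes lie on chromosome 17, in or beside the major histocompatibility complex. Psmb9 (chr17:34181987-34187764, minus strand), Tap1 (chr17:34187553-34197225), Psmb8 (chr17:34197721-34201454) and Tap2 (chr17:34203527-34216321) stand side by side within 34335 bases. Tapbp (chr17:33915899-33929292) and H2-K1 (chr17:33996017-34000347, minus strand) lie on one side of this cluster and H2-D1 (chr17:35262730-35267499) on the other. B2m is on chromosome 2 (chr2:122147686-122153083), and Nlrc5 (chr8:94434356-94527272) and Psmb10 (chr8:105935735-105938444, minus strand) are on chromosome 8. Spans are whole genes, from GENCODE annotation of that build.

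Because all 10 genes were high in the same libraries, their promoters were searched for 3 short sequences known from class I promoters: an interferon-response-like element (GAAANNGAA or GAANNGAAA), CCAAT, and TGACG, the core of a cyclic AMP response element. RefSeq promoter entries (GRCm38.p6) matched 8 of the 10 genes by symbol, all but Tap2 and Nlrc5, and the 250 bases before each start site were read on both strands. All 3 sequences were found before B2m, H2-K1 and H2-D1, against 0.682% of 26994 promoters of the same length. The sequences were picked as known from class I promoters, and both heavy chain promoters are alike. This count is therefore a description and no test. No match was found before Psmb8 or Psmb10. The interferon-like element alone was in 3 of 8 (12.5% of all promoters), CCAAT in 6 of 8 (34.4%) and TGACG in 5 of 8 (17.8%). A match of letters is not evidence of a bound site, and no binding was measured. Stretches of 200 bases are shown for both heavy chains, B2m and Tap1, with capitals on every match in either direction. H2-K1 is at chr17:34000334-34000533 on the minus strand and H2-D1 at chr17:35262846-35263045, B2m at chr2:122147487-122147686 and Tap1 at chr17:34187356-34187555, all 3 on the plus strand.
H2-K1: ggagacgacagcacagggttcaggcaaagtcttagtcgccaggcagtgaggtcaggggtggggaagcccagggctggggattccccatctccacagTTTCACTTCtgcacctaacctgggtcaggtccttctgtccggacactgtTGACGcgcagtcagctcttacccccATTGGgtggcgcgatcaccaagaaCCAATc
H2-D1: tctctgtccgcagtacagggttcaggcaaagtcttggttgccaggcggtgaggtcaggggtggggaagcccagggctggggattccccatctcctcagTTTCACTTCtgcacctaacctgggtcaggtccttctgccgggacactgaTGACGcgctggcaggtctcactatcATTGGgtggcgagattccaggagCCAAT
B2m: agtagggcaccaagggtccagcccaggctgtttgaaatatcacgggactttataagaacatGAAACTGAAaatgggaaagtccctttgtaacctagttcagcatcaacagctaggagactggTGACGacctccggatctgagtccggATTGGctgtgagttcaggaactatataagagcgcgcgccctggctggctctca
Tap1: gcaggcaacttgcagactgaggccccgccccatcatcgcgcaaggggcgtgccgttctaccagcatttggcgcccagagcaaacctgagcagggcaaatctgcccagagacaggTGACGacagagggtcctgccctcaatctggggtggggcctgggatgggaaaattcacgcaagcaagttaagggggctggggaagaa

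The H2-K1 and H2-D1 promoters shared an identical run of up to 47 bases and carried the interferon-like element on the opposite strand. The Tap1 and Psmb9 windows of 300 bases overlapped by 275 bases, since these 2 genes start back to back, so their matches are not independent. The transcripts of the heavy chains also resemble other genes. Of the 50-base windows of the H2-K1 transcript, 8.79% occurred in another gene and 6.94% in H2-D1. For H2-D1 these values were 14.3% and 5.31%. Tap1, Tap2 and Tapbp shared 0.861%, 0.737% and 2.00% of windows and the other 5 genes none. Probe sequences were not used here, so levels of both heavy chains are uncertain to the extent that a probe binds a copy.

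Monocytes and macrophages together were 79.6% to 87.7% of each library and were compared first. In these cells every one of the 10 genes was higher in IRF3/7 and in COX2i + 5-AZA than in CTRL. In COX2i the proteasome and transporter genes were higher, while H2-K1 was slightly lower in CPM and H2-D1 was level with CTRL. H2-K1, the heavy chain that presents the ovalbumin peptide seen by OT-1 cells, was at 479 CPM (474 to 485) in CTRL, 1923 (1903 to 1943) in IRF3/7, 451 (446 to 457) in COX2i and 1058 (1051 to 1066) in COX2i + 5-AZA. H2-D1 was at 201, 625, 199 and 380 CPM in the same order. B2m, the shared light chain, was at 842, 1956, 987 and 2060 CPM. Thus IRF3/7 was highest for both heavy chains, and for B2m COX2i + 5-AZA (2049 to 2071) was slightly above IRF3/7 (1936 to 1977). That order for B2m turned with size factors and TMM, which put its log2 ratio against CTRL at 1.73 and 1.67 in IRF3/7 and at 1.45 and 1.44 in COX2i + 5-AZA. Summed UMIs of both heavy chains per UMI of B2m were 0.808 (0.797 to 0.819) in CTRL, 1.30 (1.28 to 1.32) in IRF3/7, 0.659 (0.651 to 0.668) in COX2i and 0.698 (0.692 to 0.704) in COX2i + 5-AZA. This ratio depends on the probes of each gene and is comparable only between libraries.

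Of the loading genes, Tap1 differed most between libraries. Tap1 was at 81.9 CPM in CTRL, 591 in IRF3/7, 158 in COX2i and 395 in COX2i + 5-AZA. Tap2, its partner, was at 109, 387, 164 and 383 CPM, so that IRF3/7 and COX2i + 5-AZA were close for Tap2 and apart for Tap1. Tap1 UMIs per Tap2 UMI were accordingly 0.749 (0.721 to 0.779) in CTRL, 1.53 (1.48 to 1.57) in IRF3/7, 0.964 (0.938 to 0.992) in COX2i and 1.03 (1.01 to 1.05) in COX2i + 5-AZA. Tapbp, which holds heavy chains at the transporter, was at 219, 707, 278 and 540 CPM. CTRL was lowest for all 3 genes and IRF3/7 highest for Tap1 and Tapbp, while for Tap2 the CPM intervals of IRF3/7 (378 to 396) and COX2i + 5-AZA (379 to 388) overlapped. The overlap depends on scaling by library total. The TMM factors were 0.808 in IRF3/7 and 0.994 in COX2i + 5-AZA, and dividing by them puts Tap2 higher in IRF3/7.

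Among the inducible proteasome subunits, Psmb8 was at 249 CPM in CTRL, 804 in IRF3/7, 408 in COX2i and 736 in COX2i + 5-AZA. Psmb9 was at 156, 754, 252 and 556 CPM and Psmb10 at 115, 391, 203 and 329 CPM. All 3 were lowest in CTRL, intermediate in COX2i and highest in IRF3/7. Their constitutive counterparts spread far less. Psmb5 was at 213, 156, 244 and 239 CPM, Psmb6 at 151, 122, 179 and 180 CPM and Psmb7 at 107, 92.6, 144 and 125 CPM. Nlrc5, the class I transactivator, was at 40.6 CPM in CTRL, 372 in IRF3/7, 66.2 in COX2i and 150 in COX2i + 5-AZA, and IRF3/7 stood furthest from the other libraries for this gene.

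**Figure D1:**
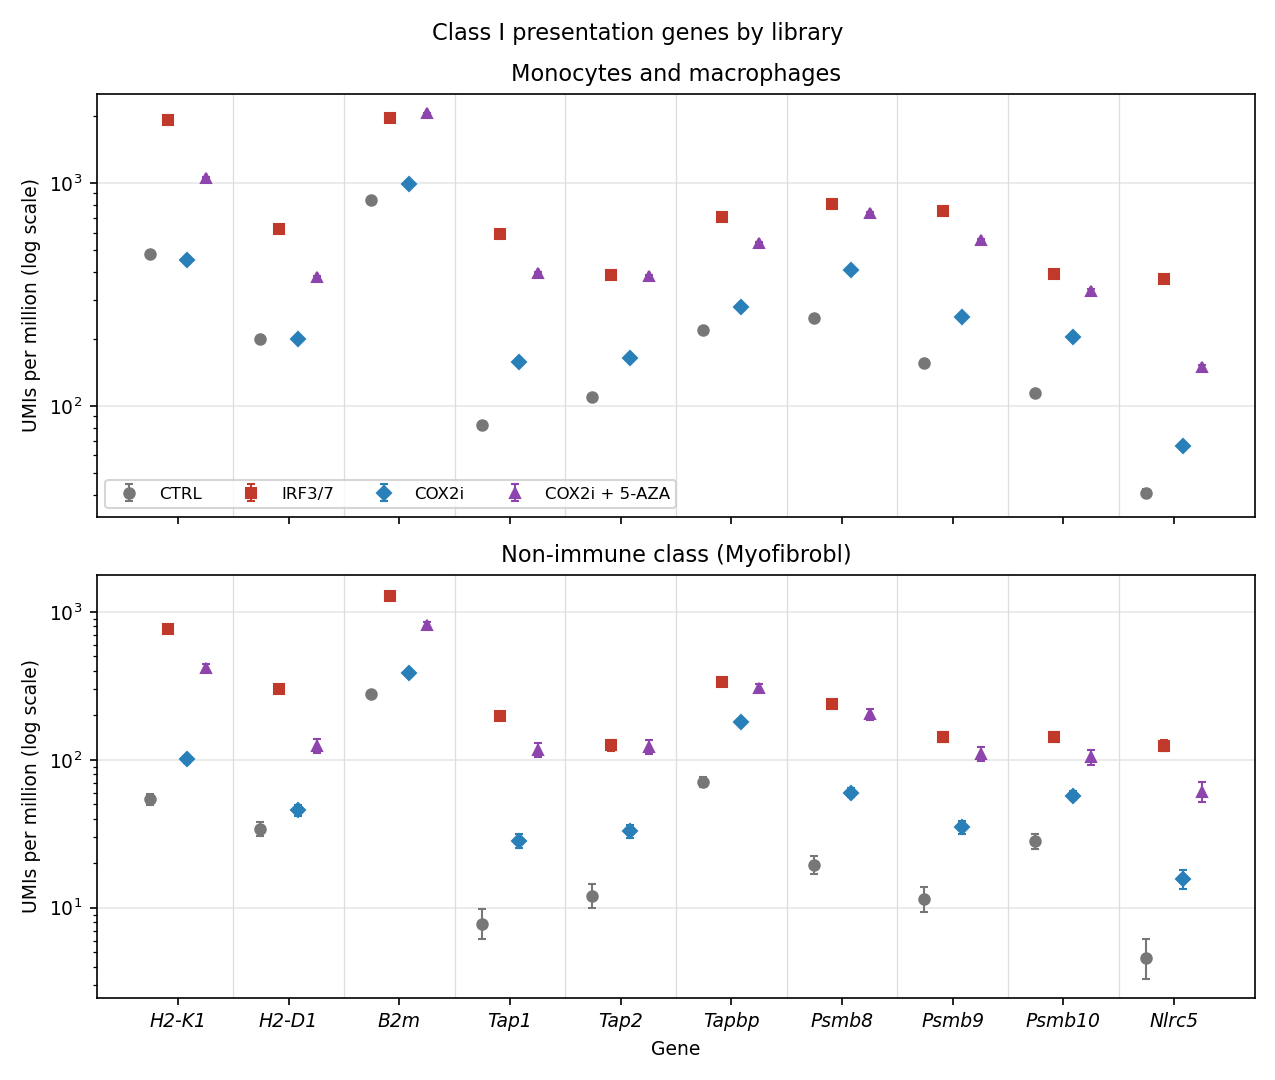
Level of each of the 10 genes (CPM, log axis) in the 4 libraries, in monocytes and macrophages (top) and in the non-immune class (bottom). Points are library sums and bars exact 95% counting intervals. CTRL and COX2i are the lowest libraries for every gene in both panels, and the non-immune levels lie below those of monocytes and macrophages in each library, for example 54.2 against 479 CPM for H2-K1 in CTRL.

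The share of the inducible gene in each pair of catalytic subunits removes the scaling by library total, since both counts come from the same cells. For Psmb8 and Psmb5 the share of Psmb8 UMIs was 54.0% (53.4 to 54.6) in CTRL, 83.7% (83.2 to 84.3) in IRF3/7, 62.5% (62.1 to 63.0) in COX2i and 75.5% (75.2 to 75.8) in COX2i + 5-AZA. For Psmb9 and Psmb6 it was 50.8%, 86.1%, 58.4% and 75.6%, and for Psmb10 and Psmb7 51.8%, 80.8%, 58.6% and 72.4%. In all 3 pairs the order was CTRL, COX2i, COX2i + 5-AZA, IRF3/7. Monocytes and macrophages were also read apart. In monocytes alone the Psmb8 share was 76.7% (72.7 to 80.3) in the 139 CTRL cells and 84.4%, 81.8% and 82.1% in the other libraries, whereas in macrophages alone it was 53.5%, 79.8%, 61.3% and 70.1%. Different clusters make up these groups. TAM_H2Ab1 was 385 of 439 macrophages in IRF3/7 and 19 of 7475 in CTRL, and Monocyte_1 was 3640 of 4684 monocytes in COX2i + 5-AZA, while Infl_Mono was 93 of 139 in CTRL. The shares are of UMIs, not of protein, and probe efficiency enters each, so only libraries can be compared.

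**Figure D2:**
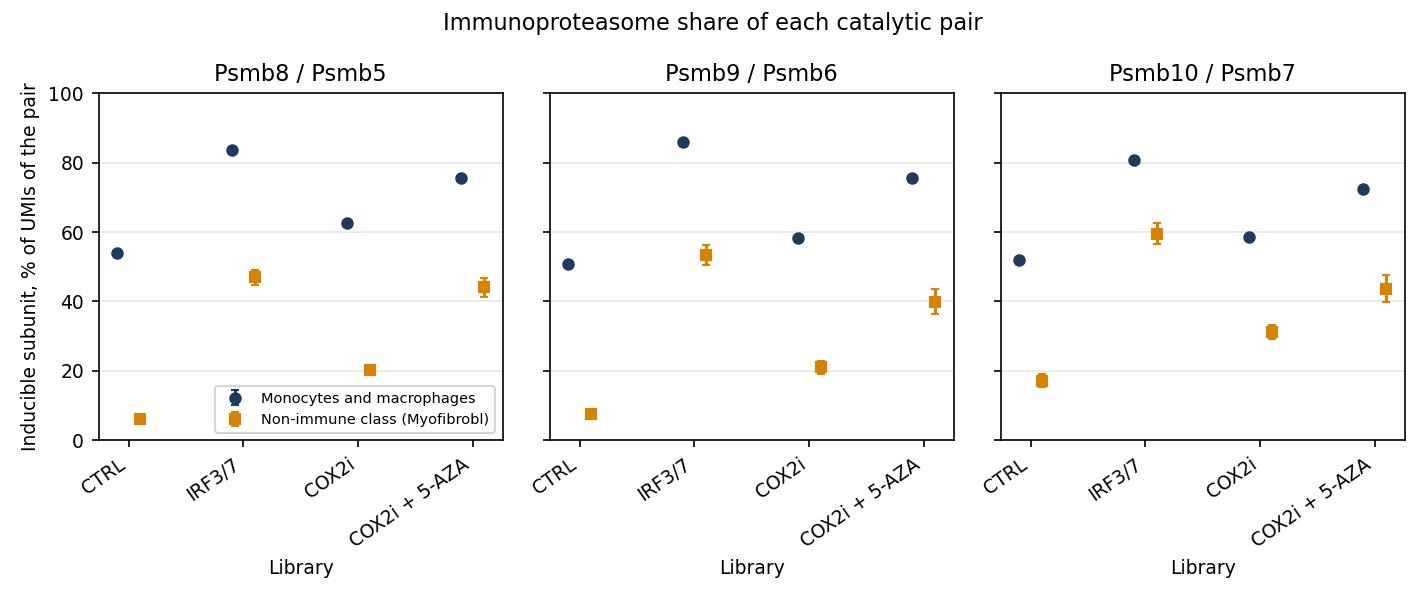
Percent of UMIs from the inducible gene in each pair of catalytic proteasome subunits, by library, in monocytes and macrophages and in the non-immune class; bars are exact 95% counting intervals. In monocytes and macrophages the shares lie between 50.8% and 86.1%, and in the non-immune class CTRL lies lowest, at 6.14% to 17%, where the Psmb8 and Psmb9 counts are at the level of leukocyte RNA.

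Log2 ratios put these differences on 1 scale. In IRF3/7 against CTRL, all 10 genes were at least 2-fold higher in monocytes and macrophages, against 9.16% of 11793 genes that had 20 or more UMIs when both libraries were added up. Their median log2 ratio was 1.80. Nlrc5 stood furthest at 3.20 (3.13 to 3.27), followed by Tap1 at 2.85 (2.80 to 2.90) and Psmb9 at 2.27 (2.23 to 2.31). B2m was the least different at 1.22 (1.20 to 1.24). H2-K1 was at 2.00 (1.98 to 2.03) and H2-D1 at 1.64 (1.60 to 1.68). The median gene was itself shifted to -0.55 in this comparison, and relative to it the members ran from 1.76 for B2m to 3.74 for Nlrc5. The cells compared were mostly monocytes in IRF3/7 and mostly macrophages in CTRL. Summing classes in the proportions of CTRL gave a median of 1.48, from the 3 classes with at least 20 cells in both, a lower minimum than elsewhere, which held 20.9% of the CTRL cells. Of those 1594 CTRL cells 1457 were TAM_cycling, a class with only 20 cells in IRF3/7, so this value rests mostly on them.

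In COX2i against CTRL, 0 of 10 genes were at least 2-fold higher in monocytes and macrophages, against 1.93% of all genes. The median was 0.64 and the median gene was at 0.01. Tap1 was at 0.95 (0.90 to 1.00), Psmb10 at 0.83 (0.78 to 0.87), Psmb8 and Nlrc5 at 0.71 each, Psmb9 at 0.69 and Tap2 at 0.58. The heavy chain H2-K1 was at -0.09 (-0.11 to -0.06) and H2-D1 at -0.01 (-0.05 to 0.03), whereas in monocytes alone they were at 0.27 (0.13 to 0.41) and 0.35 (0.14 to 0.57). B2m at 0.23 and Tapbp at 0.35 lay between. The value of H2-K1 is small and turned to 0.0072 with cells thinned to equal depth and to 0.021 with equal weight for every cell. Among macrophages the median was 0.56 and among monocytes 0.43. Monocytes alone gave medians of 0.61 in IRF3/7 and 0.66 in COX2i + 5-AZA against CTRL, and macrophages alone 1.74 and 1.30, between the different clusters named above. Nlrc5 in monocytes alone was at -0.06 (-0.28 to 0.17) in COX2i + 5-AZA against CTRL, and within Infl_Mono at 0.45 (0.17 to 0.74).

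In COX2i + 5-AZA against CTRL, 9 of 10 genes were at least 2-fold higher in monocytes and macrophages, against 5.65% of all genes, and H2-D1 at 0.92 (0.89 to 0.95) was the other. The median was 1.54 and the median gene was at -0.16. Tap1 was at 2.27 (2.22 to 2.32), Nlrc5 at 1.88 (1.82 to 1.95), Psmb9 at 1.83 (1.80 to 1.87) and Tap2 at 1.81 (1.77 to 1.85). Relative to the median gene the members ran from 1.08 for H2-D1 to 2.43 for Tap1. In COX2i + 5-AZA against COX2i, 6 of 10 were at least 2-fold higher, against 6.16% of all genes, with a median of 1.10 and the median gene at -0.19. Here H2-K1 at 1.23 (1.21 to 1.25) was among the largest, next to Tap1 at 1.32 (1.29 to 1.36) and Tap2 at 1.22 (1.19 to 1.26), and Psmb10 at 0.70 (0.66 to 0.73) was the smallest. Relative to the median gene they ran from 0.89 for Psmb10 to 1.51 for Tap1. With the class proportions of the reference library the medians were 1.05 against CTRL and 0.62 against COX2i, and in the latter 0 of 10 genes were at least 2-fold higher.

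**Figure D3:**
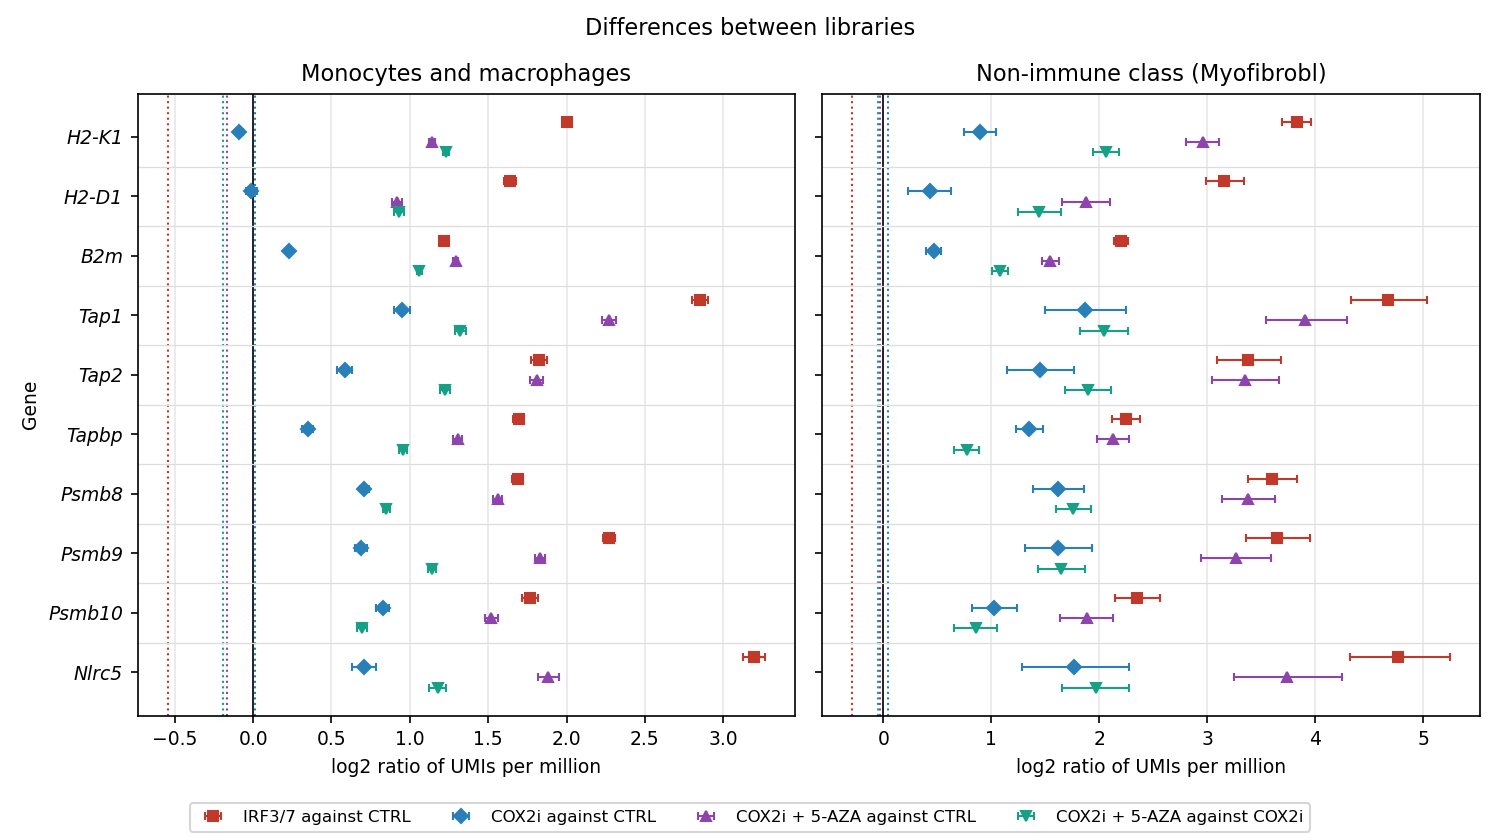
Log2 ratio of CPM for each gene in 4 comparisons of libraries, in monocytes and macrophages (left) and in the non-immune class (right); bars are exact 95% counting intervals and dotted lines the median over all genes. In the left panel the ratios of IRF3/7 against CTRL run from 1.22 for B2m to 3.20 for Nlrc5, and the heavy chains lie at -0.09 and -0.01 in COX2i against CTRL.

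Within single classes the library differences were mostly smaller. cDC2, the conventional dendritic cells that chiefly prime CD4+ T cells, were present in all libraries, with 645 cells in CTRL, 390 in IRF3/7, 666 in COX2i and 261 in COX2i + 5-AZA. H2-K1 in cDC2 was at 811, 2286, 902 and 1269 CPM, Tap1 at 227, 735, 374 and 563 CPM, and Nlrc5 at 58.5, 387, 118 and 229 CPM. In IRF3/7 against CTRL all 10 genes were at least 2-fold higher in cDC2 (6.01% of all genes), with a median of 1.45, and Nlrc5 was at 2.72 (2.47 to 2.99). The combination gave 7 of 10 against CTRL (4.4% of all genes), with a median of 1.30, and H2-K1 at 0.65, H2-D1 at 0.54 and Tapbp at 0.97 were not. The COX2i library gave a median of 0.49 in cDC2, with a range from 0.15 for H2-K1 to 1.02 for Nlrc5.

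Infl_Mono, the inflammatory monocytes, were 93 cells in CTRL and 4335 in IRF3/7 and were already high for these genes in CTRL. Tap1 in Infl_Mono was at 312 CPM in CTRL, against 63.0 CPM in TAM_C1q and 77.9 CPM in TAM_Spp1, the tumour-associated macrophages of that library. In IRF3/7 against CTRL only H2-K1 at 1.33 (1.18 to 1.48) and H2-D1 at 1.03 (0.80 to 1.28) were at least 2-fold higher in Infl_Mono, which is 2 of 10 genes against 6.17% of all genes, and the median was 0.80. B2m was the smallest at 0.48 (0.37 to 0.59). For COX2i + 5-AZA against CTRL the count was 3 of 10, against 6.04% of all genes, namely Tap2 at 1.36, Psmb8 at 1.14 and Psmb9 at 1.04. B2m at 0.97 and Tap1 at 0.95 were just under 2-fold there.

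The macrophage classes were compared between CTRL, COX2i and COX2i + 5-AZA, since IRF3/7 held no more than 20 cells of any of these 4 classes. With CTRL as reference for COX2i + 5-AZA, 3 of 10 genes were at least 2-fold higher in TAM_C1q (3.73% of all genes, median 0.90), 4 of 10 in TAM_Spp1 (2.88%, median 0.89) and 8 of 10 in TAM_cycling (4.4%, median 1.32). Tap1 was the largest in all 3, at 1.65 (1.56 to 1.75), 1.47 (1.34 to 1.60) and 1.72 (1.64 to 1.80). In COX2i against CTRL the medians were 0.33, 0.60 and 0.48. H2-K1 in TAM_C1q was at 509 CPM in CTRL, 425 in COX2i and 840 in COX2i + 5-AZA, so its ratio in COX2i was -0.26 (-0.30 to -0.22). Ctsk_Macro, led by osteoclast-type genes such as Ctsk and Acp5, was the immune class with the lowest CTRL level of 8 of the 10 genes and had the widest gap in COX2i. Its median there was 1.46, with Tap1 at 2.02 (1.76 to 2.29), Psmb10 at 1.85 (1.63 to 2.06), Nlrc5 at 1.81 (1.35 to 2.27) and H2-K1 at 0.76 (0.64 to 0.88). Tap1 in Ctsk_Macro was at 49.8 CPM in CTRL and 203 CPM in COX2i.

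The order of classes within a library differed between the genes. cDC1, the dendritic cells specialised in cross-presentation, were used in COX2i (79 cells) and COX2i + 5-AZA (60 cells). Psmb8 in cDC1 was at 1225 CPM (1140 to 1315) and 1658 CPM (1542 to 1781), above the next class in each, which was at 952 (905 to 1000) and 1310 (1201 to 1427). Psmb9, Tap1 and Tap2 were also highest in cDC1 in both libraries, with intervals clear of the next class. Yet B2m in cDC1 was at 1355 CPM (1250 to 1467) in COX2i + 5-AZA, the lowest of all immune classes there, and its Psmb10 share of the Psmb10 and Psmb7 pair was 48.8% (42.3 to 55.2) in COX2i and 61.4% (53.7 to 68.6) in COX2i + 5-AZA.

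NK cells had the highest H2-K1 in 3 libraries, at 2688 CPM (2617 to 2761) in IRF3/7, 1623 CPM (1470 to 1787) in COX2i and 2010 CPM (1947 to 2075) in COX2i + 5-AZA. In IRF3/7 this did not stand clear of the CCR7+ dendritic cells, at 2640 CPM (2424 to 2871). CCR7+ dendritic cells (labelled DC3), the mature migratory state, were highest in IRF3/7 for Tap1 at 938 CPM (811 to 1079), Tap2, Tapbp, Psmb8, Psmb9 and Nlrc5, each with its interval clear of the next class. Nlrc5 stood there at 567 CPM (470 to 680). In COX2i the highest Nlrc5 was in Infl_Mono at 293 CPM (252 to 339), not clear of Monocyte_1 at 259 CPM (235 to 284).

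**Figure D4:**
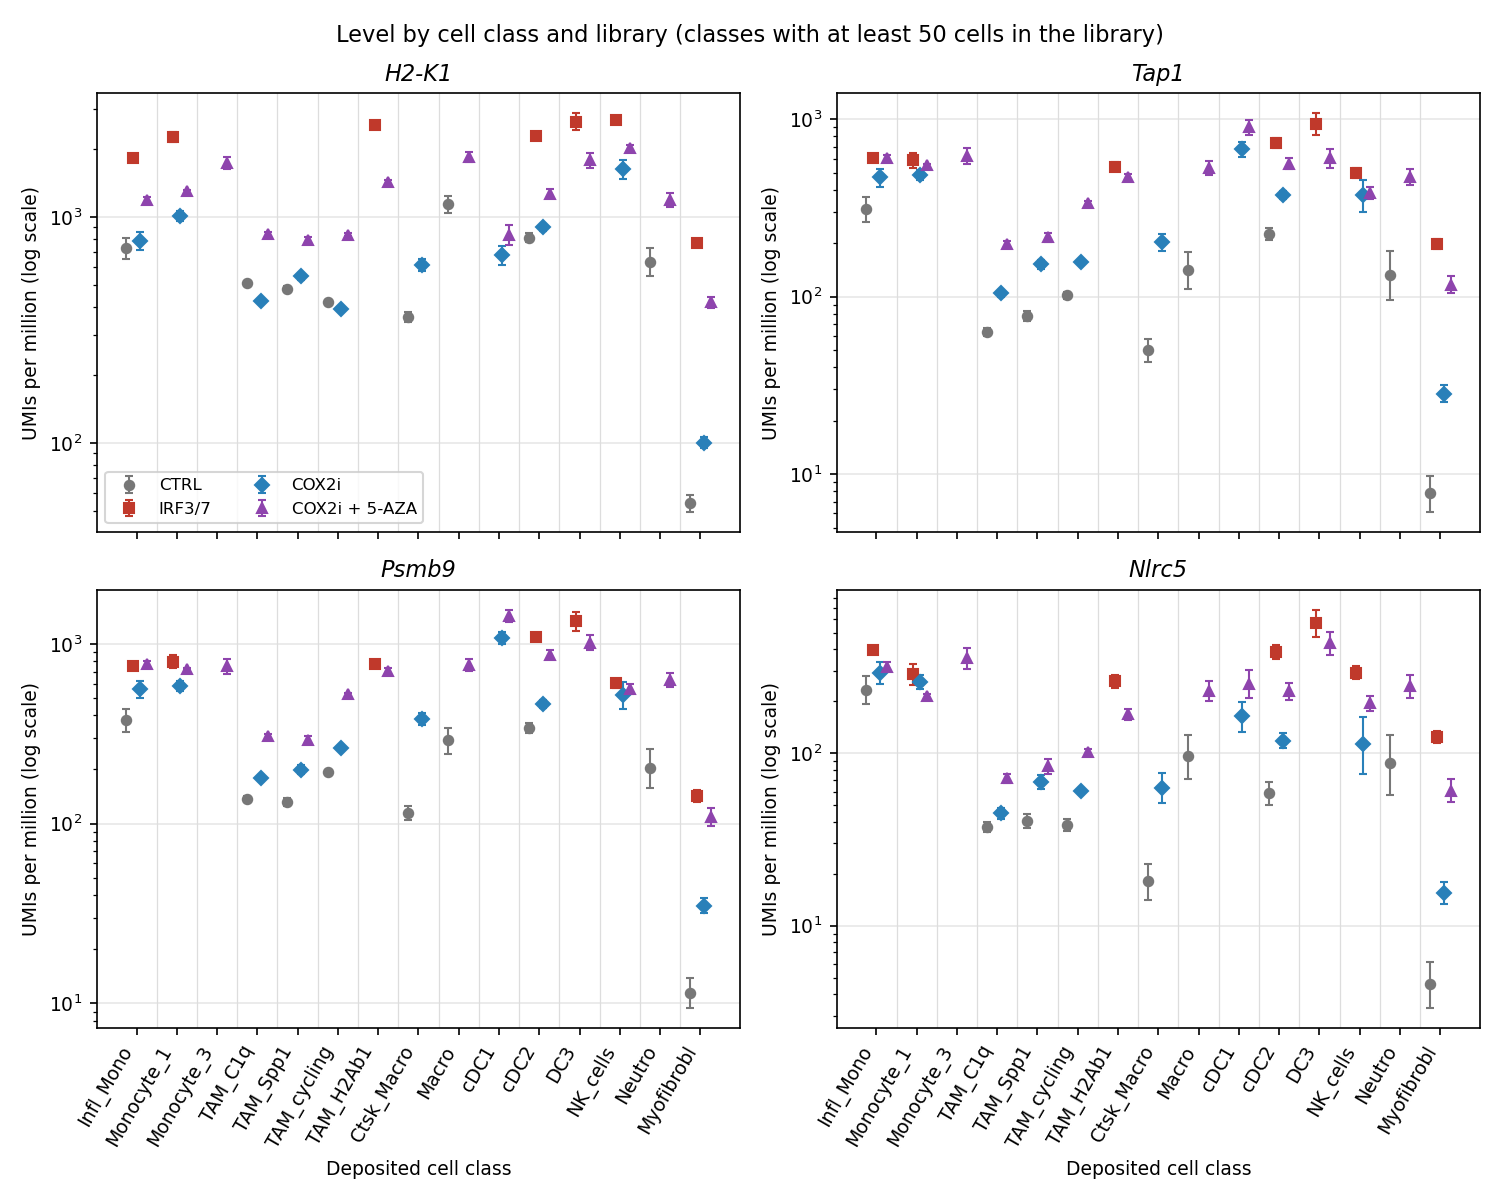
Level (CPM, log axis) of H2-K1, Tap1, Psmb9 and Nlrc5 in every cell class with at least 50 cells in a library; points are library sums and bars exact 95% counting intervals. The non-immune class (Myofibrobl) is lowest in each panel within each library, cDC1 is highest for Tap1 and Psmb9 in COX2i and COX2i + 5-AZA, and NK cells are highest for H2-K1 in IRF3/7, COX2i and COX2i + 5-AZA.

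A class annotated Myofibrobl remained after the CD45 sort, with 554 cells in CTRL, 172 in IRF3/7, 913 in COX2i and 160 in COX2i + 5-AZA. All 6 of its markers were highest in it, and it is called the non-immune class here because its identity as myofibroblasts was not uniform. Col1a2, a fibrillar collagen gene, was at 4772, 1983, 9669 and 6197 CPM. Postn, a matrix gene of activated fibroblasts, was at 56.7, 6.24, 313 and 587 CPM, and Dcn at 118, 351, 94.1 and 254 CPM. Irf7, carried by the vector of the cancer cells, was at 14910 CPM in IRF3/7, against 8.20 in CTRL, 19.2 in COX2i and 67.1 in COX2i + 5-AZA, and Irf3 was at 584 CPM against 24.5 to 35.1. Of the 172 cells in IRF3/7, 156 held at least 2000 CPM of Irf7, 14 of the 172 lay within 2-fold of that line, and the highest cell was at 716 CPM in CTRL, 1263 in COX2i and 1682 in COX2i + 5-AZA, with 2 cells within 2-fold of the line in each of the drug libraries. The melanocyte gene Pmel had at most 6 UMIs in any library and Mitf was at 17.8 to 32.1 CPM. Endogenous and vector transcripts of Irf7 cannot be told apart in these counts.

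In the non-immune class every one of the 10 genes was at its lowest in CTRL and highest in IRF3/7. H2-K1 was at 54.2 CPM (49.6 to 59.0) in CTRL, 768 (743 to 795) in IRF3/7, 101 (94.9 to 106) in COX2i and 420 (397 to 445) in COX2i + 5-AZA. H2-D1 was at 33.9, 303, 45.7 and 124 CPM and B2m at 280, 1290, 388 and 820 CPM. No immune class with at least 50 cells had a lower level of any of the 10 genes in the same library. The balance of the heavy chains differed too, with 1.60 UMIs of H2-K1 per UMI of H2-D1 (1.39 to 1.84) in CTRL, 2.54 in IRF3/7, 2.20 in COX2i and 3.38 (3.00 to 3.82) in COX2i + 5-AZA.

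Tap1 in these cells was at 7.78 CPM (6.12 to 9.76) in CTRL, 198 (185 to 212) in IRF3/7, 28.4 (25.4 to 31.6) in COX2i and 117 (105 to 130) in COX2i + 5-AZA. Tap2 was at 12.0, 125, 32.9 and 123 CPM and Tapbp at 70.5, 334, 180 and 307 CPM. Both drug libraries were therefore above CTRL for the whole loading machinery, and for Tap2 the CPM intervals of COX2i + 5-AZA (110 to 136) and IRF3/7 (115 to 136) overlapped. This overlap too depends on scaling, since TMM factors of 1.04 and 0.863 put these 2 libraries further apart. Psmb8 was at 19.5, 237, 60 and 203 CPM, Psmb9 at 11.4, 143, 35 and 109 CPM, and Psmb10 at 28.1, 143, 57.4 and 104 CPM. Nlrc5 was at 4.57 CPM (3.32 to 6.13) in CTRL, 124 (114 to 135) in IRF3/7, 15.6 (13.4 to 18.0) in COX2i and 60.7 (52.0 to 70.6) in COX2i + 5-AZA. The constitutive Psmb5 differed little, at 298, 268, 237 and 258 CPM. The Psmb8 share of its pair was thus 6.14% (5.32 to 7.05), 47.0% (44.9 to 49.1), 20.2% (18.9 to 21.6) and 44.1% (41.3 to 46.8). For Psmb9 and Psmb6 the shares were 7.50%, 53.3%, 21.0% and 39.9%, and for Psmb10 and Psmb7 17%, 59.6%, 31.2% and 43.6%. The CTRL shares of Psmb8 and Psmb9 rest on counts at the level of leukocyte RNA, as given below.

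In IRF3/7 against CTRL, all 10 genes were at least 2-fold higher in the non-immune class, against 6.07% of all genes, with a median log2 ratio of 3.49. The cells of this class differed between libraries in Col1a2, Postn and Irf7, as given above. Ratios of this class may therefore set different kinds of cells against each other, which was not tested. The CTRL levels of Psmb8 and Psmb9 in this class were at that of leukocyte RNA and those of Tap1 and Nlrc5 not clear of it, as given below, so the ratios of these genes to CTRL are not ranked. Without Psmb8 and Psmb9 the counts against CTRL were 8 of 8 genes in IRF3/7, 5 of 8 in COX2i and 8 of 8 in COX2i + 5-AZA, and the medians 3.27, 1.19 and 2.54. In IRF3/7 H2-K1 was at 3.83 (3.69 to 3.96) and B2m at 2.20 (2.14 to 2.27). The median gene was at -0.29. In COX2i against CTRL 7 of 10 were, against 4.54% of all genes, with a median of 1.40. Tap1 was at 1.87 (1.50 to 2.25) and Nlrc5 at 1.77 (1.29 to 2.28). The size of both ratios is uncertain, since their CTRL levels were not clear of leukocyte RNA. In the cells with little leukocyte marker RNA described below, Tap1 was at 3.35 and Nlrc5 at 2.48, on 8 and 6 UMIs in CTRL. H2-K1 at 0.89 (0.74 to 1.04), B2m at 0.47 (0.40 to 0.54) and H2-D1 at 0.43 (0.23 to 0.63) were under 2-fold. H2-K1 passed 2-fold, at 1.45 (1.16 to 1.75), in the cells with little leukocyte marker RNA described below. H2-D1 turned to -0.29 with cells thinned to equal depth.

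In COX2i + 5-AZA against CTRL all 10 genes were at least 2-fold higher in this class, against 5.53% of all genes, with a median of 3.11. Tap2 was at 3.35 (3.04 to 3.66). Tap1 at 3.91 (3.54 to 4.29) and Nlrc5 at 3.73 (3.25 to 4.25) are not ranked. Their CTRL levels were not clear of leukocyte RNA, so the size of both ratios is uncertain. In the cells with little leukocyte marker RNA described below, Tap1 was at 6.33 and Nlrc5 at 5.61, on 8 and 6 UMIs in CTRL. In COX2i + 5-AZA against COX2i 8 of 10 were, against 2.98% of all genes, with a median of 1.7, and H2-K1 was at 2.06 (1.95 to 2.18). Tapbp at 0.77 (0.66 to 0.89) and Psmb10 at 0.85 (0.65 to 1.05) were the others. The median gene was at 0.04 in COX2i and -0.03 in COX2i + 5-AZA against CTRL, and at -0.05 in COX2i + 5-AZA against COX2i. Whether a comparison differed between this class and the immune classes was not tested, for want of replicate libraries.

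RNA from leukocytes, free or from cells caught together, could add counts of these genes to non-immune cells, so 8 leukocyte markers were read in the same way. Their level in the non-immune class was 6.19% to 8.47% of that in monocytes and macrophages in CTRL, 1.97% to 2.57% in IRF3/7, 8.81% to 11.6% in COX2i and 5.93% to 8.34% in COX2i + 5-AZA. The 10 genes reached 19.0% to 65.9% in IRF3/7, 13.9% to 64.6% in COX2i and 19.7% to 56.8% in COX2i + 5-AZA, above the highest marker for all 10. In CTRL 8 of 10 were above it, from 7.31% for Psmb9 to 33.3% for B2m, and Psmb8 at 7.83% and Psmb9 were not. The interval lay above the highest marker for 6 of them, but not for Tap1 at 9.5% (7.46 to 11.9) or Nlrc5 at 11.3% (8.15 to 15.2). The CTRL counts of Psmb8 and Psmb9 in this class were therefore at the level of leukocyte RNA and are read as background, so their ratios against CTRL do not compare expression with expression.

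**Figure D5:**
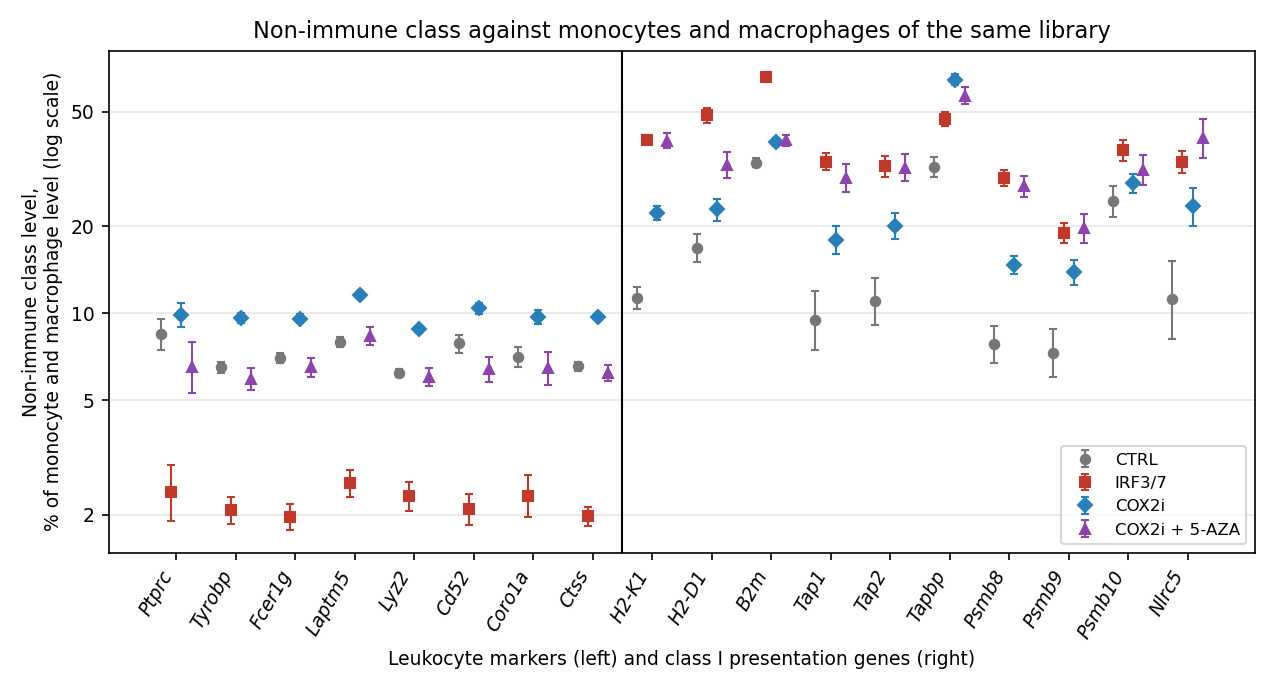
Level in the non-immune class as a percent of the level in monocytes and macrophages of the same library (log axis), for 8 leukocyte markers (left of the line) and the 10 genes (right); bars are exact 95% counting intervals. Markers lie between 1.97% and 11.6%, and all 10 genes lie above the highest marker in every library except CTRL, where Psmb8 and Psmb9 do not.

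The same levels were read in the non-immune cells at or under their library's median of leukocyte marker RNA, a choice made after seeing the data. The leukocyte markers summed to 147 CPM in the CTRL cells so chosen and to 1516 CPM in all CTRL cells of the class. Marker RNA was thus uneven between cells, and its source was not tested. In those 277 of 554 CTRL cells Tap1 had 8 UMIs, a level of 1.47 CPM (0.633 to 2.89), Nlrc5 had 6 UMIs at 1.10 CPM (0.404 to 2.39), and Psmb9 was at 1.47 CPM. H2-K1 was at 22.6 CPM and B2m at 259 CPM. In the 86 IRF3/7 cells Tap1 was at 178 CPM, Nlrc5 at 76.8 CPM and H2-K1 at 744 CPM. In the 457 COX2i cells Tap1 was at 15 CPM, and in the 80 COX2i + 5-AZA cells at 118 CPM. Psmb8 in the CTRL cells was at 2.57 CPM, against 19.5 in all CTRL cells of the class, and B2m at 259 against 280. The median log2 ratios against CTRL were 5.29 in IRF3/7, 2.03 in COX2i and 4.84 in COX2i + 5-AZA. These medians include Psmb8 and Psmb9, which had 14 and 8 UMIs in the CTRL cells, so their size is uncertain.

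Within the IRF3/7 library the 16 non-immune cells under 2000 CPM of Irf7 were not low in the 10 genes. They were not without Irf7 either, at 751 CPM (603 to 924), with Irf3 at 160 CPM. All CTRL cells of the class were at 8.20 and 31.2 CPM. H2-K1 was at 945 CPM (778 to 1137) in the 16 cells and 764 CPM (738 to 790) in the 156 cells above the line. Tap1 was at 329 (234 to 450) and 195 (182 to 208), and Nlrc5 at 447 (335 to 585) and 116 (106 to 126). B2m was the only 1 of the 10 at a lower level, at 768 (618 to 942) against 1304 (1271 to 1339). The 16 cells were also richer in Dcn, at 2657 against 288 CPM, and in Col1a2, at 11673 against 1719 CPM, and had a median of 6608.5 UMIs per cell against 24198.5. Tyrobp, a leukocyte gene, was at 143 CPM in them and 71.9 CPM in the others, and its part in the result was not tested.

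Per cell, the counts were compared after thinning every cell to 1500 UMIs. In monocytes and macrophages the 10 genes together gave a median of 3 UMIs per thinned cell in CTRL, 12 in IRF3/7, 4 in COX2i and 10 in COX2i + 5-AZA. Before shallow cells were left out, CTRL cells were mostly macrophages (7475 of 7614) and IRF3/7 cells mostly monocytes (4596 of 5035). Monocytes and macrophages were not read apart here. The lower and upper quartiles were 2 and 5 UMIs in CTRL and 10 and 16 in IRF3/7, so these ranges did not overlap. Cells without any of these UMIs were 4.59%, 0% (0 of 4704), 2.54% and 0.372%. In the non-immune class the medians were 1, 5, 1 and 2 UMIs, and cells without any were 49.0%, 6.43%, 38.9% and 20.8%. The upper quartile of the COX2i + 5-AZA cells was at 6.5 UMIs and the lower at 1, a wider spread than in CTRL, where these were 1 and 0.

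Thinned cells with a UMI of Nlrc5 were 6.28%, 40.6%, 9.85% and 22.6% of monocytes and macrophages, and without thinning 22.0%, 62.9%, 35.2% and 59.2%. Left out as too shallow were 78, 331, 68 and 210 cells. In the non-immune class, at median depths of 11036 to 20862.5 UMIs, thinned cells with a UMI of Tap1 were 1.28%, 23.4%, 3.7% and 15.1%. Tyrobp, which these cells should lack, was found in 15.8%, 12.9%, 15.8% and 17.6% of them, so a single UMI does not mark an expressing cell. Tyrobp was far more abundant in leukocytes than Tap1, at 3161 against 81.9 CPM in CTRL monocytes and macrophages, and the shares were not compared between these genes.

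Of the wider class I pathway, 51 further genes were in the table, and in monocytes and macrophages 14 of the 49 with enough UMIs were at least 2-fold higher in IRF3/7 than in CTRL and 3 were lower, against 9.16% and 32.2% of all genes. The nonclassical and other heavy chains were the strongest group, with 5 of 7 higher. H2-Q7 was at 26.8 CPM in CTRL and 766 in IRF3/7, H2-T24 at 19.7 and 534, H2-Q6 at 55.9 and 827, H2-Q4 at 13.5 and 123, and H2-T23 (the Qa-1 heavy chain, a ligand of inhibitory receptors on NK cells) at 6.79 and 40.9. The H2-Q genes are near-identical copies, and their counts are uncertain to that extent. None of the 14 constitutive 20S proteasome genes were higher or lower by 2-fold, with a median of -0.09. Psme1, a subunit of the PA28 activator, was higher at 1.24, and the assembly chaperones Psmg1 and Psmg2 were at -1.37 and -1.33. Relative to the median gene at -0.55, Psmg1 was at -0.82 and Psmg2 at -0.79, so neither was 2-fold lower on that scale.

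Of 7 peptide loading and trimming genes outside the 10, Tapbpl (the tapasin-related editor TAPBPR) was at least 2-fold higher in IRF3/7, at 2.18, which is 1 of 7 against 9.16% of all genes. Lnpep, an aminopeptidase of endosomes, was at 0.85 (0.81 to 0.89), or 1.40 relative to the median gene. The chaperone Canx was at -1.37, or -0.83 relative to the median gene. The trimming aminopeptidase Erap1 was at 95.1 CPM in CTRL and 52.0 in IRF3/7. Of 9 transcription factors of the pathway 6 were higher, among them Stat2 at 3.65, Irf1 at 3.57 and Ciita, the class II counterpart of Nlrc5, at 2.58. The RFX subunits that work with Nlrc5 were under 2-fold in monocytes and macrophages, with Rfx5 at 0.64 and Rfxap at -0.40, but relative to the median gene Rfx5 was at 1.18 and thus past 2-fold. Irf1 in these cells was at 104, 1237, 209 and 733 CPM in CTRL, IRF3/7, COX2i and COX2i + 5-AZA.

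In COX2i against CTRL 4 of 49 such genes were at least 2-fold higher in monocytes and macrophages (1.93% of all genes), among them Clec9a, Ciita at 1.59 and Irf1 at 1.00. Clec9a, a cDC1 receptor for dead cells, was at only 0.238 and 2.25 CPM. All 14 constitutive 20S genes were slightly higher, from 0.20 to 0.50, which is less than Psmb8, Psmb9 and Psmb10 differed. Against CTRL, COX2i + 5-AZA had 15 of 50 (5.65% of all genes), including H2-Q7 at 2.78, Irf1 at 2.81, Tapbpl at 2.04 and Cd1d1 at 3.66. Cd1d1, which presents lipids to NKT cells, was at 1.94, 3.7, 2.30 and 24.6 CPM in the 4 libraries, so that COX2i + 5-AZA stood apart from IRF3/7 for this gene.

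In the non-immune class 7 of 7 other heavy chain and class I-like genes were at least 2-fold higher in IRF3/7 against CTRL (6.07% of all genes), and 0 of 14 constitutive 20S genes were. In CTRL, however, H2-Q4 and H2-Q7 were at 8.43% and 7.73% of their level in monocytes and macrophages, within the range of the leukocyte markers, and H2-T23 and H2-T24 were not clear of it, so no ratio is given for these 4. H2-Q6 was at 3.56 (3.20 to 3.95) and H2-M3 at 1.24 (0.90 to 1.58). Stat2 was at 4.81 and Irf9 at 2.78, while Irf1 was at 1.39. For COX2i + 5-AZA, Stat2 was at 2.64 and Irf1 at 2.21. Irf1 was thus at 137, 359, 216 and 632 CPM in the 4 libraries and Stat2 at 7.47, 209, 19.7 and 46.5 CPM, a different order. Erap1 was at 43.4, 56.9, 72.7 and 104 CPM.

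Across 40 sums of cells, 1 for each class with at least 50 cells in each library, the 10 genes varied together. The lowest Pearson correlation of log levels between any pair of them was 0.846 and the median of 45 pairs was 0.893. The correlation of each gene with the mean of the others was from 0.917 for Psmb10 to 0.972 for Tap1, while it was -0.33 for Psmb5, -0.02 for Psmb6 and -0.09 for Psmb7. Of 7759 other genes, those most like the mean of the 10 included Dtx3l (0.943), Nmi (0.941), Gbp5 (0.927), H2-T23 (0.921), H2-Q4 (0.918), Psme2b and Parp9 (0.917), Zbp1 (0.916) and Gvin1 (0.909). These sums share libraries, depth and classes, and the correlations are descriptions across classes and libraries, with no test.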

How the data were processed

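Single-cell RNA was measured in CD45+ cells of 4 libraries, 1 per group, by Chromium Flex, in which probes are ligated on fixed RNA. Per the study's methods, reads were processed by the authors in cellranger multi (version 7.1.0, mm10 probe set), who filtered cells on detected genes, mitochondrial and ribosomal reads, kept genes shared across experiments and annotated classes from clusters of integrated experiments. The deposited table holds whole-number UMI counts that were not normalized. How doublets were treated is not given in the sources used here, and no caller was run; leaving out the 5% of cells with most UMIs was an alternative. Probes read only part of a transcript. The members, lists and alternatives were chosen with earlier results of these data known. UMIs were summed over cells and divided by total UMIs. Intervals are exact Poisson, Clopper-Pearson and conditional 95% intervals, and a count of 0 was set to 3 UMIs in ratios. Genes named outside the members were those of the listed pathway genes that were at least 2-fold different with at least 20 UMIs in a comparison, with their partners for contrast, and the 10 genes most alike. An item among these is not reported here. A gene named in contrast was chosen after its values were seen. The scripts were tested on simulated data and used Python 3.11.15, numpy 2.4.6, scipy 1.17.1, pandas 2.3.3, and R 4.3.3 with edgeR 4.0.16 for TMM factors.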

Additional observations from a re-analysis of the deposited data

Results flagged for a closer look

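H2-K1 differed in direction between classes in COX2i against CTRL. Its log2 ratio was 0.76 in Ctsk_Macro and 0.89 in the non-immune class (Myofibrobl) and -0.26 in TAM_C1q, and the difference between classes was not tested. Nlrc5 in COX2i + 5-AZA against COX2i was at -0.27 in Monocyte_1, at 0.12 in Infl_Mono, at 1.96 in the non-immune class, 0.95 in cDC2, 0.78 in NK cells, 0.75 in TAM_cycling, 0.68 in TAM_C1q, 0.62 in cDC1 and 0.30 in TAM_Spp1. This difference was not tested either. Apart from Infl_Mono, whose ratio is given for completeness, these intervals exclude 0, which covers counting error only.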

How the results depend on the processing

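With 1 library per group, no replicate could be left out. No paired analysis was possible because each group has 1 library and no result comes from a test. All median log2 ratios stayed above 0 under every alternative run, and 29 of 56 moved by less than counting error. In monocytes and macrophages, IRF3/7 against CTRL gave 2.31 with size factors, 2.25 with TMM and 1.48 with class proportions. COX2i against CTRL gave 0.74 thinned, 0.72 with equal weight for every cell and 0.56 with class proportions. COX2i + 5-AZA against CTRL gave 1.7 with size factors, 1.69 with TMM, 1.50 in cells above 2000 genes, 1.68 thinned, 1.65 with equal weight and 1.05 with class proportions, and against COX2i 1.27, 1.28, 1.14 with equal weight and 0.62 with class proportions. In the non-immune class IRF3/7 against CTRL gave 3.78 with size factors, 3.77 with TMM and 3.16 thinned, COX2i against CTRL 1.11 thinned, and COX2i + 5-AZA against COX2i 1.96 without the deepest 5% of cells, 1.92 thinned and 2.16 with equal weight. The cells at or under the median leukocyte marker level, chosen after seeing the data, gave 5.29, 2.03 and 4.84 against CTRL and 2.74 against COX2i, with Psmb8 and Psmb9 included. Counts of genes at least 2-fold higher moved by more than 1.5 times in 2 of 56, from 0 to 1 (COX2i against CTRL, equal weight) and from 6 to 0 (COX2i + 5-AZA against COX2i, class proportions). Smaller moves included size factors and TMM, which gave 10 and 9 in place of 9 and 6 for COX2i + 5-AZA against CTRL and against COX2i in monocytes and macrophages. In the non-immune class the low-marker cells gave 8 in place of 7 for COX2i against CTRL and 9 in place of 8 for COX2i + 5-AZA against COX2i. The share of all genes was not counted under size factors, TMM or in low-marker cells, so these moves cannot be set beside it. The share of all genes at least 2-fold higher, set beside each count, moved in all 8 comparisons when genes with 1 UMI or more were kept, and in the non-immune class it went from 6.07% to 11.1%, from 4.54% to 6.73% and from 5.53% to 12.2% against CTRL and from 2.98% to 8.93% against COX2i. Of 560 values of single genes 3 changed sign, H2-K1 to 0.0072 thinned and 0.021 with equal weight and H2-D1 in the non-immune class to -0.29 thinned, each in COX2i against CTRL. The cause was not tested. Spread between tumours cannot be known from pooled libraries, and IRF3/7, the shallowest, held few macrophages.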
